A study of Caenorhabditis elegans with 2 samples.

Results

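The autosomal intron peaks of the transcription factor ELT-2 in Caenorhabditis elegans are 539 binding sites, of 5443 called in all and of 4255 on the autosomes. The authors had thresholded the list of called peaks for reproducibility between replicates. From that list each intron peak was chosen only by the position of its summit, the point of strongest enrichment. The summit had to lie on an autosome, inside the body of a protein-coding gene, outside every protein-coding exon, and more than 200 bp from any tRNA, snRNA or snoRNA gene. It also had to lie outside every promoter. A promoter here reaches from 1000 bp before to 200 bp after the 5′ end of a protein-coding transcript. Of the autosomal summits, 1495 were in gene bodies, 785 of these were outside promoters, 603 were also outside exons, and 539 were also away from small RNA genes. Another 364 summits lay in introns but inside a promoter window and are not counted here. At the upstream limit, a summit in pld-1 was the nearest inside the rule, at 1006 bp from the next 5′ end and with a signal of 259, while a summit at 993 bp, with a signal of 290, was the nearest outside it.

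The data come from chromatin immunoprecipitation and sequencing of whole L1 larvae, in 1 group of 2 biological replicates and with no comparison of conditions. The worms were OP56 hermaphrodites, unc-119(ed3) III with the transgene wgIs56, which makes ELT-2 with GFP and FLAG at its C terminus. They were harvested 6 h after synchronization, which was by starvation from bleached eggs. The description of the samples names an antibody to GFP, while their antibody field reads elt-2. The labels list no mutation of the native elt-2 gene, so untagged protein may be present, and all tissues were sampled together. No read counts were used, so the depth behind a peak is unknown. The peak signal is the score the authors' peak caller gave, and it serves here only to rank or describe peaks within 1 list. The authors' threshold was for reproducibility between replicates, and the 5443 thresholded peaks were the strongest 5443 of 16833 pooled peaks. The authors label the pooled list as peaks and background, so its entries below the threshold may be background and not binding sites. Peaks are sites of 1 experiment and not replicates of it, so the intervals below, all Wilson intervals at 95%, cover counting error only, and so do the tests over peaks. The labels do not say how the cultures of the 2 replicates were separated.

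ELT-2 belongs to the GATA family of zinc finger proteins. It is the predominant transcription factor of the differentiated worm intestine and acts on genes for digestion, metabolism and defence. GATA factors bind a short sequence with GATA at its core, and in worm intestinal genes the form TGATAA recurs in regulatory DNA. Binding sites inside introns can act as enhancers of the gene that holds them or of another gene, or have no effect on expression; a peak does not tell these apart.

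The sequences of 9 intron peaks are given first, because they show what the summits hold. Each is 151 bp centred on the summit, read 5′ to 3′ on the plus strand of ce11 from the RefSeq assembly, with every match to WGATAR, in either direction, in capitals. W stands for A or T and R for A or G, so that the form TGATAA is 1 of 4, and on the other strand it reads TTATCA. The first 6 are the strongest intron peaks whose sequence may be shown, in order of signal:
T13B5.9, chrII:1103807-1103957: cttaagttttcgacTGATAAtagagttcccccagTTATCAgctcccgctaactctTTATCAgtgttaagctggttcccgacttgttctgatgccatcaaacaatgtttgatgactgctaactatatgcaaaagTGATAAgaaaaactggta
zip-5, chrV:13269412-13269562: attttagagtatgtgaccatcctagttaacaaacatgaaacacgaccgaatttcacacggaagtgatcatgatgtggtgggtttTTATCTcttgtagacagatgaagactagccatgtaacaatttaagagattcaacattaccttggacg
pkg-2, chrIV:8527739-8527889: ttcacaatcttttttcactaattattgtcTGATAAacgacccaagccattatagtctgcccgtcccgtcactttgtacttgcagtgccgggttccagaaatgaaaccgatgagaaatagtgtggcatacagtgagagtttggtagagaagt
F49E12.12, chrII:8383022-8383172: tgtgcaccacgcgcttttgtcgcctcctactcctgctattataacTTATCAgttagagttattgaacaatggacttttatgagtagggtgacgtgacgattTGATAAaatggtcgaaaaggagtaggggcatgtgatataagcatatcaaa
vhp-1, chrII:5323938-5324088: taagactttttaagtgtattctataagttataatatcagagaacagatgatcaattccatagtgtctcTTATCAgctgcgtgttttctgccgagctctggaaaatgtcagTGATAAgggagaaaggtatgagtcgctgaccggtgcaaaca
epg-9, chrIV:2602124-2602274: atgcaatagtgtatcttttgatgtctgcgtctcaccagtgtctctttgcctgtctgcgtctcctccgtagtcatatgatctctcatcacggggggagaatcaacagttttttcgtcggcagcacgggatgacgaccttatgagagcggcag
The peak in T13B5.9, which codes for a leishmanolysin-like peptidase by its RefSeq product name, has 4 copies of TGATAA in this stretch, on both strands. The peak in epg-9, whose product is the autophagy protein ATG101, has no capitals, and its only copy of TGATAA within 150 bp is centred 112 bp from the summit.

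A further 2 have the most copies of TGATAA within 150 bp of the summit among the intron peaks whose sequence may be shown. There are 6 in mig-10, which codes for an adaptor protein of axon guidance, and 5 in ZK250.2, known by a domain of unknown function and equalled by lfe-2, which is not shown:
mig-10, chrIII:8291756-8291906: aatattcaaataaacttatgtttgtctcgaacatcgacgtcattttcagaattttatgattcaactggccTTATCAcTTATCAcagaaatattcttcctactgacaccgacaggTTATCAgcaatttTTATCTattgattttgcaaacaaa
ZK250.2, chrII:1949245-1949395: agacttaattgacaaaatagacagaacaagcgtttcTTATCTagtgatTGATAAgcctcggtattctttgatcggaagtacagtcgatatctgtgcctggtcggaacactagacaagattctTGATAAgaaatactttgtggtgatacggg
The last is the strongest without any WGATAR within 150 bp. Its host is pqn-41, which codes for a polyglutamine-repeat protein:
pqn-41, chrIII:1925240-1925390: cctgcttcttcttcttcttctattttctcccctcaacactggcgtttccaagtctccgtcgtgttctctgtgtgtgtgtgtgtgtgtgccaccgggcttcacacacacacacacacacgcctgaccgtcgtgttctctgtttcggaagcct
The pqn-41 summit lies in a run of alternating G and T, with a run of alternating C and A to its right, and 57.4% of the bases within 50 bp of it are G or C. Some of these 9 sequences were chosen by their number of copies, so the set cannot show how copies go with rank. It does show that a strong peak can have no copy at its summit.

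TGATAA lay within 50 bp of 302 of the 539 intron summits, or 56.0% (51.8% to 60.2%). In windows of the same size 500 bp to the right, 50 of 539 had it, or 9.28% (7.11% to 12.0%). The ratio was 6.04, and 270 peaks had the hexamer at the summit alone while 18 had it in the flank alone (exact McNemar test, two-sided, p = 7.3e-59). The left flank gave 7.98%. Over all eligible intron sequence cut into tiles of the same size, 8.32% of 222195 tiles held TGATAA, so the flanks of intron peaks were close to introns at large. Where the whole flank window lay in the same intron as the summit, 52.1% of 330 summits and 10.3% of flanks had the hexamer.

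Copies were densest at the summit. The bin of 25 bp on the intron summit held 136 copies, or 25.2 per 100 peaks. In the same bin the 2447 autosomal promoter peaks had 18.9 per 100, intergenic peaks 22.3 and exon peaks 23.1. Among the 410 intron peaks with a copy within 150 bp, the nearest was centred a median of 26.5 bp away, with quartiles of 10.5 and 50.2 bp, and for 47.3% it was within 25 bp. Counted within 150 bp, 129 intron peaks had no copy, 152 had 1, 152 had 2 and 106 had 3 or more. Hence 47.9% of summits had 2 or more, against 5.38% of right flanks. Neighbouring copies started a median of 45.0 bp apart, with quartiles of 21 and 88 bp, and the closest pairs were 6 bp apart, which is end to end. Orientation relative to the host gene was near even, with 383 of 805 copies in the sense direction, or 47.6% (44.1% to 51.0%).

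**Figure D1:**
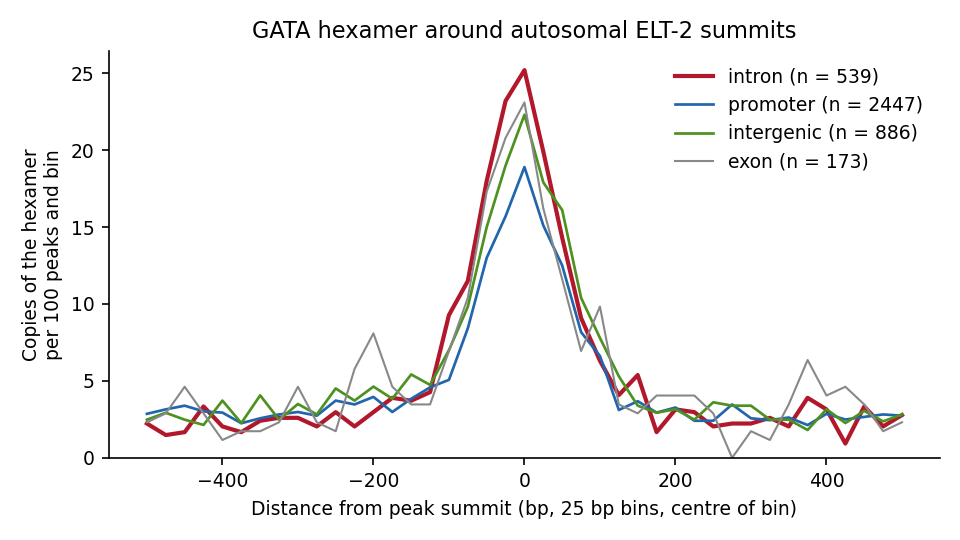
Copies of TGATAA per 100 peaks in bins of 25 bp (vertical axis) by distance from the summit in bp (horizontal axis), for autosomal intron, promoter, intergenic and exon peaks. Intron peaks reach 25.2 copies per 100 peaks in the bin on the summit, against 18.9 for promoter, 22.3 for intergenic and 23.1 for exon peaks. Beyond 150 bp the intron curve stays under 5 copies per 100, while the exon curve reaches up to 8.09.

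All hexamers, each taken with its reverse complement, were compared between intron summits and their right flanks. At an adjusted p under 0.05 (exact McNemar test, Benjamini-Hochberg over all hexamers), 67 were more frequent at summits, 3.22% of those tested, and 65 were less frequent, 3.12%. TGATAA came first by p-value. GATAAG, which shares 5 bases with it, followed, in 41.2% of summits and 3.71% of flanks (exact McNemar test, adjusted p = 1.1e-46). Of the 67, 13 contained GATA, many of them overlapping frames of one site. The hexamers less frequent at summits were led by runs of A and T. AAAATT, for example, was in 23.9% of summits and 48.4% of flanks (exact McNemar test, adjusted p = 1.6e-14). The median GC content was 38.6% at summits and 35.6% in flanks.

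Most copies of TGATAA in introns were not within 50 bp of the summit of an intron peak. Copies elsewhere under a peak, or under peaks of other classes, were not counted as such. Eligible introns, meaning intron sequence that satisfies the rule, held 20762 copies, and 448, or 2.16%, were within 50 bp of an intron summit. Copies in a cluster share a peak, so these shares describe copies and not independent sites. The base after the hexamer went with a wide spread: 8.30% of copies followed by G were at an intron summit (7.33% to 9.39%), 3.07% of those followed by C, 1.05% by T and 0.779% by A. With both neighbours, CTGATAAG was at a summit in 72 of 603 copies, or 11.9% (9.59% to 14.8%), and GTGATAAG in 10.9%. TTGATAAA, the most common form with 4124 copies, was at a summit in 0.461% (0.295% to 0.718%).

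Clustered copies were more often at a summit. A copy with no other within 100 bp was at an intron summit in 0.719% of cases, with 1 other in 5.23%, with 2 others in 18.3% and with 3 or more in 25.3% (17.3% to 35.3%, 22 of 87). Both features together gave the highest share of the groups counted, since 64 of 149 copies followed by G and with 2 or more others nearby were at an intron summit, or 43.0% (35.3% to 51.0%). Copies followed by another base and with at most 1 other nearby were so in 0.810%. Shares also differed with the intron and the gene. In introns over 5000 bp, 4.80% of copies were at an intron summit, and in introns of at most 1000 bp 1.57%. In genes with an ELT-2 peak in the promoter of any of their transcripts 5.49% of intron copies were, against 1.29% in genes without one.

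Stronger intron peaks had more copies. The 134 strongest had a mean of 1.86 ± 1.26 copies within 150 bp (SD over peaks), the next 135 had 1.59 ± 1.19, the third group 1.29 ± 1.14 and the weakest 135 had 1.24 ± 0.996. In the same order, TGATAA was within 50 bp of 58.2%, 64.4%, 49.6% and 51.9% of summits, while the flanks stayed between 8.21% and 10.4%. The share at the summit thus did not follow the order of signal, and the weakest group of intron peaks was still well above its flanks. The median signal was 320.4 for intron peaks with 3 or more copies, 260.9 with 2, 232.4 with 1 and 223.5 with none. The ranges overlap widely, from 145.6 to 2582 with 3 or more copies and from 142.9 to 1118 with none. Below the authors' threshold, where entries may be background, intron summits of the pooled list had TGATAA within 50 bp in 16.1% of 1779 cases (14.5% to 17.9%).

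**Figure D2:**
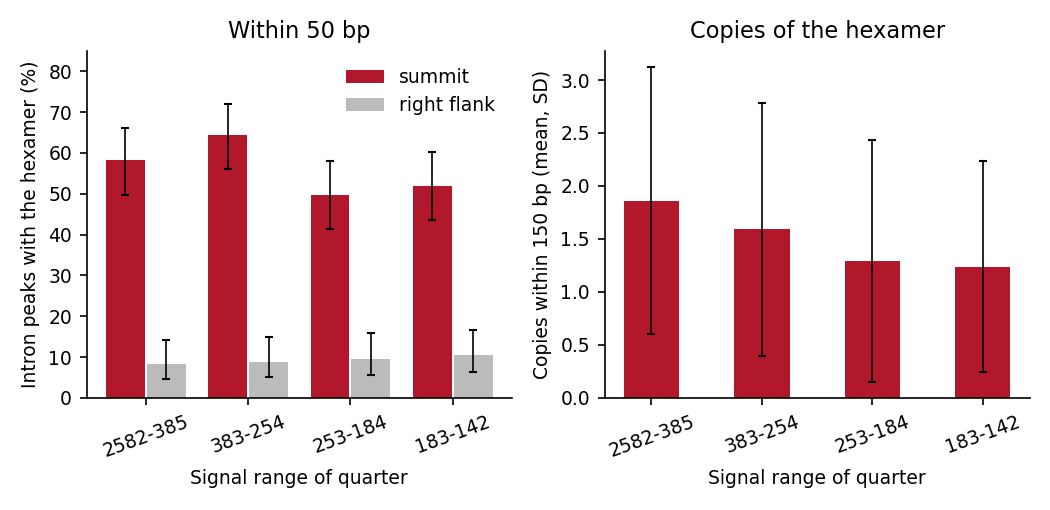
Left, the percentage of intron peaks with TGATAA within 50 bp of the summit (red) and of the right flank (grey) in 4 groups by signal, with Wilson intervals. Right, the mean number of copies within 150 bp, with the SD over peaks. Summit shares run from 49.6% to 64.4% against 8.21% to 10.4% in flanks, and mean copies from 1.86 in the strongest group to 1.24 in the weakest.

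Intron peaks without any site were few. In 64 of 539, or 11.9% (9.41% to 14.9%), no WGATAR lay within 150 bp of the summit, while 50.5% of right flanks had none. Their median signal was 234.1, with a range of 143.4 to 1118, close to the 253.5 of all intron peaks. The strongest was in pqn-41, shown above, with signals of 632 in replicate 1 and 483 in replicate 2. The next, in ppfr-1, a regulatory subunit of protein phosphatase 4, had 628 and 457. A pair of genes for non-coding RNA, one of them antisense, overlap that summit. The replicate 2 summit of the ppfr-1 peak lay just outside the 150 bp searched, so the lack of WGATAR refers to the combined summit, which is also that of replicate 1.

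Compared with autosomal promoter peaks, intron peaks more often had TGATAA within 50 bp of the summit. The shares were 56.0% for intron peaks and 43.1% (41.1% to 45.0%) for 2447 promoter peaks, a difference of 13.0 percentage points (Fisher's exact test, two-sided, adjusted over 3 class comparisons, p = 1.8e-07). The right flanks of the same peaks did not show this order, with 9.28% for intron and 9.85% for promoter peaks. Against 886 intergenic peaks, with 51.1%, the difference was 4.90 points (Fisher's exact test, adjusted p = 0.0957). Against 173 exon peaks, with 48.6%, it was 7.47 points (Fisher's exact test, adjusted p = 0.0957). Intron peaks were therefore set apart from promoter peaks by this test and not from the other 2 classes, though the p-values do not show that those classes are alike. Peaks without WGATAR within 150 bp were 11.9% of intron, 22.1% of promoter, 13.8% of intergenic and 14.5% of exon peaks. The mean number of TGATAA copies within 150 bp was 1.49 at intron, 1.14 at promoter, 1.40 at intergenic and 1.32 at exon summits.

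Of the same hexamers, 8 were more frequent at intron than at promoter summits, 0.385% of those tested, and 20 were less frequent, 0.962% (Fisher's exact test, adjusted over all hexamers). TGATAA was among the 8 (Fisher's exact test, adjusted p = 5.0e-05), as were TTGATA, with 27.5% of intron and 18.3% of promoter summits (adjusted p = 9.7e-04), and GATAAG, with 41.2% and 31.4% (adjusted p = 0.00326). The hexamer with the smallest p-value was GGCGCA, in 4 intron summits, or 0.742%, and in 5.88% of promoter summits (Fisher's exact test, adjusted p = 1.8e-05). GCGCAC and TTGCGC, which overlap it in part, were also rarer at intron summits, with 1.11% and 0.928% against 6.09% and 5.68% of promoter summits. The median GC content was 38.6% in both classes.

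In strength, intron peaks resembled promoter peaks. Signals ran from 142.2 to 2582 with a median of 253.5 for intron peaks, and from 142.2 to 6412 with a median of 251.5 for promoter peaks. The 1360 strongest peaks of the whole list took in 135 intron peaks, or 25% (21.6% to 28.9%), and 24.4% of promoter peaks (Fisher's exact test, adjusted p = 0.782), and 29.3% of intergenic peaks (adjusted p = 0.131). Of exon peaks it took 16.2%, or 8.86 points less than of intron peaks (Fisher's exact test, adjusted p = 0.0499). Along the autosomal list, cut into 10 groups by signal, the intron share stayed between 11.1% and 14.8%. Intron peaks were 12.7% (11.7% to 13.7%) of all autosomal peaks above the authors' threshold. Below it, introns held 19.3% (18.5% to 20.1%) of the 9227 autosomal pooled entries, which may include background. Eligible intron sequence is 27.2% of autosomal length.

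Long introns held more peaks for their length. Intron peaks numbered 24.0 per Mb of the 22.4 Mb of eligible sequence. Summed gene by gene, which counts sequence shared by overlapping genes more than once, the density was 23.6 per Mb. Densities by intron length, intron number and gene group use that sum. In introns of up to 500 bp there were 17.2 per Mb, between 500 and 1000 bp 15.9, between 1000 and 2000 bp 13.4, between 2000 and 5000 bp 34.0, and over 5000 bp 57.7. Introns over 5000 bp held 152 intron peaks, or 28.2%, on 11.5% of eligible sequence. The median intron with a peak measured 2216 bp, counting each peak once, while the median of all 68872 autosomal introns with eligible sequence was 87 bp. Just 86 of 421 introns over 5000 bp had a peak, and 111 of 54477 of those up to 500 bp. Position in the gene went the same way. Introns numbered first from the 5′ end held 32.8% of intron peaks and 19.6% of eligible sequence. The density was 39.5 per Mb in such introns, 27.1 in those numbered second and 17.9 in all later ones. Among introns of at most 1000 bp alone, the densities in this order were 23.2, 20.9 and 14.2 per Mb, and among longer ones 49.7, 34.3 and 22.5.

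**Figure D3:**
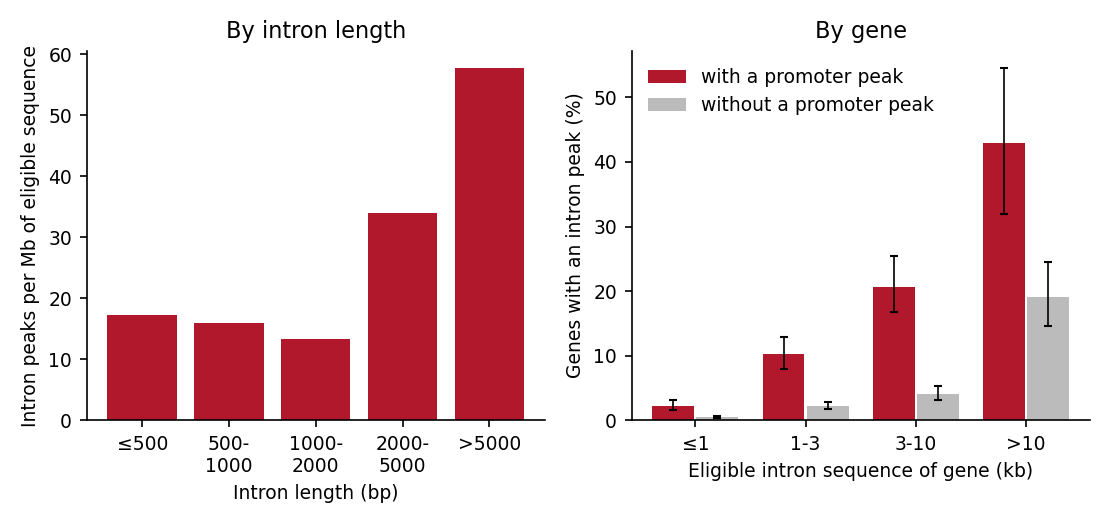
Left, intron peaks per Mb of eligible sequence (vertical axis) by intron length in bp. Right, the percentage of genes with an intron peak by the amount of eligible intron sequence in kb, for genes with (red) and without (grey) an ELT-2 promoter peak, with Wilson intervals. A promoter peak may be at any transcript 5′ end of the gene, internal ones included. Density is 57.7 per Mb in introns over 5000 bp against 13.4 to 17.2 in introns of at most 2000 bp, and genes with a promoter peak stand higher in each of the 4 groups.

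Summits were a median of 2601 bp from the 5′ end of the host and 1398 bp from the closest 5′ end of any protein-coding gene, which was the host's own in 88.5% of cases. A later 5′ end of the same gene lay downstream of 259 summits, or 48.1%, and within 3000 bp downstream of 144. How often eligible intron sequence at large has such positions was not counted, so these shares describe the intron peaks without a background. For 25 summits a non-coding gene other than a piRNA covered the same position, and 11 summits lay in 2 protein-coding genes. The density ranged from 19.5 per Mb on chromosome I to 27.2 per Mb on chromosome II.

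The 539 intron peaks fell in 390 of the 14825 autosomal protein-coding genes with eligible intron sequence, or 2.63% (2.39% to 2.90%). Of these hosts, 295 had 1 intron peak, 57 had 2, 29 had 3 and 9 had 4 or more. A peak in the host's promoter was present for 190 of 390, or 48.7% (43.8% to 53.7%), against 15.8% of genes without an intron peak. The promoter window of any transcript 5′ end of the gene counted, internal ones included, so such a peak may itself lie in an intron. The number of 5′ ends per gene was not allowed for. Long genes have more intron to hold a peak, so genes were also divided by their eligible sequence. Among genes with up to 1000 bp of it, 2.28% of those with a promoter peak and 0.468% of those without one had an intron peak. The corresponding shares were 10.2% and 2.20% from 1000 to 3000 bp, 20.7% and 4.09% from 3000 to 10000 bp, and 42.9% and 19.1% above 10000 bp. In all 4 groups the intervals of the paired shares did not overlap. A gene's promoter and intron peaks share its neighbourhood, and this is given as a description.

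The 20 strongest intron peaks lay in 18 genes, since pkg-2 and crh-2 each had 2 of them. Of the 20, 11 had TGATAA within 50 bp, 17 within 150 bp and 18 had WGATAR within 150 bp. Introns over 2000 bp held 13 of them. The strongest, at T13B5.9, had signals of 1419 in replicate 1 and 1178 in replicate 2 and ranked 9 of all peaks in both. In zip-5, which codes for a bZIP protein, they were 1200 and 897, and the summit lay 291 bp from an internal 5′ end of that gene. F49E12.12, which RefSeq lists as uncharacterized, had 755 and 676. In vhp-1, a phosphatase that shuts off stress-activated MAP kinases, the strongest of 3 intron peaks had 735 and 540, in an intron of 8201 bp. The peak in epg-9 had 700 and 461. Further down, aakg-1, a gamma subunit of AMP-activated kinase, had 644 and 454. The CREB homolog crh-2 had 580 and 434 at the stronger of its peaks. Other hosts among the 18 were egl-27, of the metastasis-associated protein family, with 563 and 516, lap-1, a leucine aminopeptidase, with 484 and 474, and lfe-2, an inositol trisphosphate 3-kinase, with 533 and 394.

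The 9 genes with the most intron peaks were long. pkg-2, a cGMP-dependent protein kinase on chromosome IV (8520894 to 8538187, plus strand), had 7, from 5274 to 12115 bp downstream of its 5′ end. The fifth of its introns, of 6824 bp, held 5 and the next, of 3697 bp, held 2. The strongest had signals of 1049 and 771 in replicates 1 and 2, the second 652 and 380, and the weakest 94.0 and 60.0. All 7 rest on separate peaks in each replicate. An internal 5′ end of pkg-2 lies 15014 bp from the first, downstream of all of them.

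**Figure D4:**
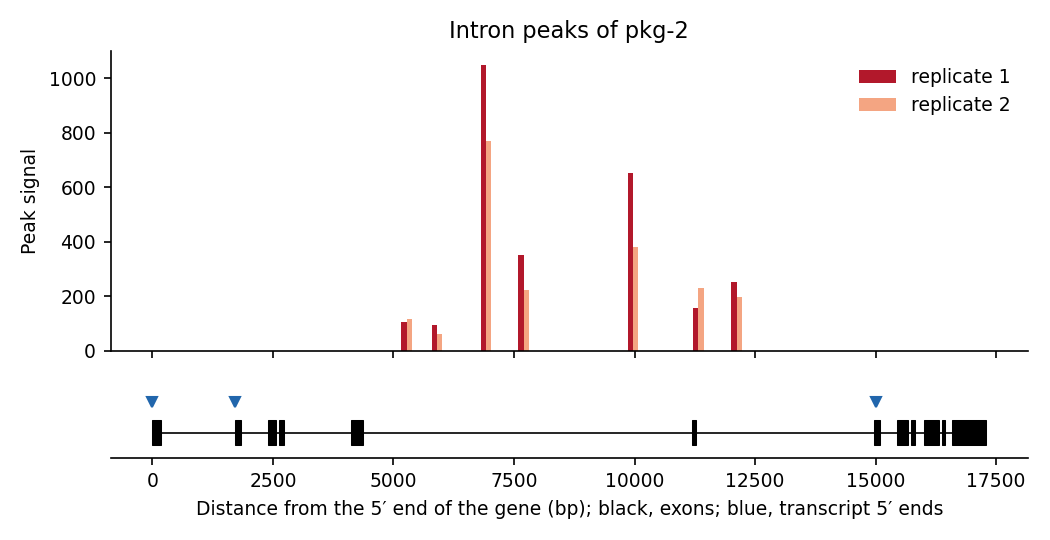
Signal of the 7 intron peaks of pkg-2 in replicate 1 (dark) and replicate 2 (light) by distance in bp from the 5′ end of the gene, above its exons and transcript 5′ ends. The peaks run from 5274 to 12115 bp, across the fifth intron and the next, with the strongest at 1049 and 771 in replicates 1 and 2.

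let-526, which codes for an ARID protein of the SWI/SNF chromatin remodelling complex, had 6 intron peaks in 4 introns, but these rest on 5 peaks in each replicate. daf-5, the Ski-family partner of Smad signalling in dauer formation, had 5 in its first intron of 14446 bp, with the highest at 245 and 125 in replicates 1 and 2. sea-2, an autosomal signal of sex determination, had 5 in 1 intron, resting on 4 peaks in each replicate. T28B11.1, an F-box gene, had 4 in an intron of 17091 bp, the strongest with 486 and 378. hlh-30, the worm TFEB and a regulator of autophagy and lipid breakdown, had 4 in 2 introns, and skn-1, the Nrf-related regulator of detoxification that also specifies early endoderm, had 4 in its first intron. In skn-1 the strongest had 157 and 152 in replicates 1 and 2 and the weakest 123 and 57.8. The remaining genes with 4 were aakg-1 and lmd-3, given by RefSeq as an oxidation resistance protein. Of all 539 intron peaks, 22 shared the replicate peak beneath them with another intron peak, so that 528 separate peaks of each replicate lay under them. Neighbours in the same intron were a median of 1204 bp apart, and the closest were 200 bp apart.

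Named groups of genes were counted against the 2.63% of all eligible genes with an intron peak, and by peaks per Mb, since they differ in how much intron they offer. The groups were chosen with earlier results of these data known, so a high count in one is no independent support. Of 20 autosomal genes of insulin, TOR and energy signalling, 7 had one, with 20 intron peaks between them, or 91.3 per Mb of eligible sequence against 24.0 for all genes. Of these 20, 7 are those of pkg-2. Beside pkg-2 and aakg-1 these were daf-16, the FOXO factor of the pathway, with 3 peaks led by 189 and 142 in replicates 1 and 2, daf-2, the insulin receptor, with 3, led by 152 and 103, and the CREB factor crh-1, the cGMP-dependent kinase egl-4 and the TOR kinase let-363 with 1 each. aak-1 and age-1 had none. This list has long introns, a median of 6048 bp of eligible sequence per gene against 641 for all genes. The values for all genes do not allow for that. Of genes with 3000 to 10000 bp of eligible sequence, 7.41% had an intron peak, and of those above 10000 bp, 24.4%. Introns over 5000 bp held 57.7 peaks per Mb. Whether this list, or any list below, differs from genes of like length was not tested. MAP kinase and stress response genes had an intron peak in 5 of 20, with 175 peaks per Mb. Their median was 2504 bp of eligible sequence, and of all genes with 1000 to 3000 bp, 3.52% had an intron peak. The hosts were vhp-1, mpk-1, the ERK kinase, atf-7, a target of p38 signalling, skn-1 and tir-1, the SARM adaptor of the p38 pathway. Neither atfs-1 nor egl-9 had an intron peak.

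Transcription factors of intestine and metabolism had one in 5 of 30, at 118 per Mb: the Krüppel-like factor klf-1, the Blimp-1 homolog blmp-1, hlh-30, the nuclear hormone receptor nhr-8 and pha-4, the FoxA factor of foregut development. All 5 also had a promoter peak, and elt-1 and elt-6 had no intron peak. For lipid metabolism the count was 4 of 34, at 120 per Mb. The hosts were the acyl-CoA synthetases acs-13 and acs-5, dsc-4, the microsomal triglyceride transfer protein, and pod-2, acetyl-CoA carboxylase, and all 4 had a promoter peak too. At dsc-4 the signals were 193 and 122. The 2 summits in acs-13 are 200 bp apart and rest on 1 peak in each replicate. Among intestinal transporter and brush border genes 2 of 15 were hosts: ifb-2, an intermediate filament of the gut, with 296 and 307, and eps-8, a microvillus protein. act-5 and aqp-1 had promoter peaks and no intron peak. Epithelial polarity genes gave 2 of 17, par-1 and ifo-1, at 20.1 per Mb, against the 24.0 of all genes. That is 4 peaks where the density of all genes gives 4.79.

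Signalling genes of the Wnt, Notch, TGF-beta and EGF pathways had an intron peak in 4 of 37, at 83.6 per Mb, and those 4, daf-5, daf-14, cam-1 and lag-1, had no promoter peak. The median gene of this list had 1981 bp of eligible sequence, more than that of all genes. lag-1, the DNA-binding factor of Notch signalling, held 3 intron peaks. Calcium, lipid and protein kinase genes gave 4 of 24, at 23.8 per Mb, namely itr-1, the inositol trisphosphate receptor, gtl-1, a TRPM channel, egl-8, a phospholipase C, and kin-1, the catalytic subunit of protein kinase A. That density is close to the 24.0 of all genes. Axon guidance and adhesion genes gave 2 of 26, rig-6 and mig-10, at 14.9 per Mb. Neuronal genes gave 1 of 31, unc-43, the CaM kinase II, with 386 and 241 in replicates 1 and 2, at 7.05 per Mb. Both densities are below that of all genes, but they rest on few peaks. The axon guidance and adhesion list held 3 where the density of all genes gives 4.84, and the neuronal list 1 where it gives 3.41. By share of genes, with 7.69% and 3.23%, neither list is below the 2.63% of all genes.

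No intron peak was found in 28 genes of body wall muscle, although their eligible introns amount to 151 kb. The same held for 23 genes of endocytosis and gut granules with 59.9 kb, 24 of cuticle and epidermis with 48.7 kb and 36 of the germ line with 19.8 kb. For the 25 cytosolic ribosomal protein genes with any eligible sequence there were only 3.09 kb. By counting error alone, 0 of 28 muscle genes still allows a share of up to 10.7% (3 counts), above the 2.63% of all genes. At the density of all genes, the muscle introns would hold 3.63 peaks, those of endocytosis and gut granules 1.44, of cuticle 1.17, of the germ line 0.476 and of ribosomal proteins 0.0742, so only for muscle does the absence concern more than 1 or 2 peaks. The 15 lists were chosen with earlier results of these data known, and the counts are descriptions with no test.

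Both replicates held every intron peak. None of the 539 lacked an overlapping peak in replicate 1 or in replicate 2. The replicate summits were a median of 16.0 bp apart, and for 457, or 84.8% (81.5% to 87.6%), they were within 50 bp. The 2 lists of 17177 and 18929 peaks are relaxed, so overlap alone is a weak standard. Among the 5443 strongest of both replicates were 445 intron peaks, 82.6% (79.1% to 85.5%), and 85.1% of promoter peaks (Fisher's exact test, adjusted p = 0.219). Intergenic peaks had 84.2% (Fisher's exact test, adjusted p = 0.418). Exon peaks had 73.4%, 9.15 points below intron peaks (Fisher's exact test, adjusted p = 0.0337). By groups of signal, 134 of 134, 135 of 135, 131 of 135 and 45 of 135 intron peaks met this standard, from the strongest group to the weakest. Signal in the combined list is made from the same replicates, so this order is fixed in part by how the groups were formed. The ranks in replicates 1 and 2 had a Spearman's rho of 0.857 over the 539 peaks. This is a description, since the peaks share libraries and come from a list thresholded for reproducibility.

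**Figure D5:**
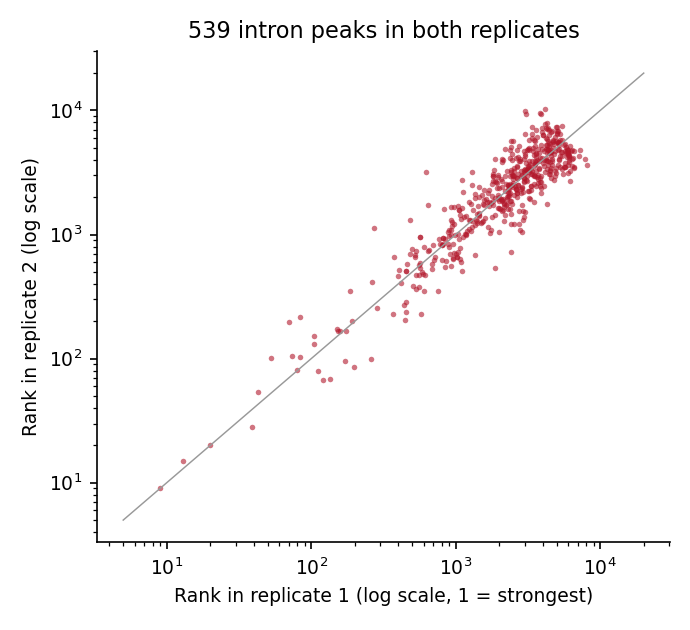
Rank of each of the 539 intron peaks in replicate 1 (horizontal) and replicate 2 (vertical), both on log scales with 1 the strongest, and the line of equal ranks. The points follow the line from rank 9 in both replicates to 8041 in replicate 1 and 10225 in replicate 2.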

How the data were processed

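ChIP-seq peaks of 2 biological replicates of 1 group were used. Per the labels and the notes deposited with them, the authors made a relaxed peak list for each replicate, a pooled list and a list thresholded for reproducibility by IDR, on ce11. Which aligner and peak caller were used, and at what threshold, is not given in the sources used here. The deposited score of each peak, called signal in the text, is the authors' and was used only within a list. Files hold no read counts, and depth is unknown. Lists on ce10 were not used here.

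Summits were classed on the Ensembl release 115 annotation of 19973 protein-coding genes (WBcel235, the same build as ce11), with sequence from the RefSeq assembly. Introns are gaps between the merged exons of a gene, and a summit in several was given to the shortest. Gene symbols were matched exactly, and product names are RefSeq's. Motifs were sought on both strands within 50 bp of summits, with flanks 500 bp away, and copies were counted within 150 bp. Tests were two-sided exact McNemar and Fisher tests with Benjamini-Hochberg adjustment and a threshold of 0.05, and were checked on simulated data. The members, gene lists and tests were chosen with earlier results of these data known.

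Genes named are hosts of the 20 strongest intron peaks, those with at least 4 intron peaks, up to 4 hosts and 2 others per list, the 5 with most copies of TGATAA and the 3 strongest without WGATAR. The text names part of these, and 1 of the peaks without WGATAR is not reported here. The programs ran on Python 3.11.15 with SciPy 1.17.1 for tests, NumPy 2.4.6 and pandas 2.3.3 for tables, and matplotlib 3.10.9 for plots.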

Additional observations from a re-analysis of the deposited data

How the results depend on the processing

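The number of intron peaks fell to 264 with promoters of 3000 bp upstream and 500 bp downstream, and 280 among the 2721 strongest peaks. Leaving out a replicate, by taking the 5443 strongest peaks of the other, gave 531 to 552. The excess of TGATAA at intron summits over flanks, and over promoter summits, kept its direction and its side of the threshold under every alternative run. With replicate 1 or 2 left out the difference from promoter peaks was 11.1 to 13.3 percentage points. The difference from intergenic peaks passed the threshold with promoters of 500 and 100 bp, at 5.36 points (Fisher's exact test, adjusted p = 0.0295), and from exon peaks at 8.91. With a replicate left out it was 0.968 to 7.20 points for intergenic and 7.44 to 11.0 for exon peaks, and both passed without replicate 2, at 7.20 and 11.0 points (Fisher's exact test, adjusted p = 0.0120 for each). The difference from exon peaks became -4.52 points among the 2721 strongest peaks (Fisher's exact test, adjusted p = 0.558). The difference from promoter peaks in the share among the strongest of both replicates was 1.24 points for the 2721 strongest peaks of each, against -2.56, and neither passed. With a motif window of 25 bp, 37 hexamers were more and 28 less frequent than in flanks, and 2 more and 11 less frequent than at promoter summits. Among the 2721 strongest peaks, 4 were more and 2 less frequent than at promoter summits. The causes of these shifts were not tested. A pair of results was checked in ways added after seeing the data. The 390 hosts became 222 among the 2721 strongest peaks, and the density in introns over 5000 bp was 3.47 times that in introns of at most 1000 bp, and 3.11 to 4.19 times under the alternatives. No paired analysis was possible because there is 1 group, whose replicates have no partner in another. Depth is unknown, so it cannot be said which missing sites lay below detection.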
